A study of Rattus norvegicus with 10 samples.

Results

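The collagen gene family was examined in RNA of the renal cortex, in Dahl salt-sensitive rats on high salt that did or did not receive oxonic acid. Its members were all protein-coding rows of the deposited gene table whose symbol has the form of a collagen chain name, such as Col1a1. This gave 43 gene records with 42 distinct symbols (Col23a1 has 2 gene IDs) among 32545 genes in the table. Of these 43, 27 had a mean of at least 0.5 FPKM (fragments per kilobase of gene and per 1 M (mega) reads) over the 10 libraries and were tested, and 16 lay below that level. A few further records named in the text are not members: Col6a3, which the table types as a processed transcript, LOC100911572 (ENSRNOG00000015365; another record of that symbol is at or near 0), described there as alpha-3(IV) chain-like, and LOC100909752, described as alpha-1(XV) chain-like. These were taken for their annotation.

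The rats, of both sexes and of the inbred SS/JrHsdMcwi strain, carried no engineered allele and are labelled wild type. They ate 0.4% NaCl, received telemeters at 8 to 9 weeks of age, had blood pressure recorded for 4 days, and were then moved to 4% NaCl, alone (vehicle, 5 libraries) or with 2% oxonic acid (5 libraries), for 3 weeks. Uricase, which breaks down urate in rodents, is blocked by oxonic acid, which is given to raise urate. The comparison asks which transcripts go with oxonic acid during salt loading, and no urate value was used here. All animals were on high salt, and no library from the low-salt diet was analysed here. The labels do not give the sex of each animal and do not tie each library to its own rat, so p-values measure the spread between these libraries, part of which may be technical.

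Collagens are trimeric proteins whose chains wind into a triple helix built on a repeat with glycine at regular steps. Fibrillar collagens (types I, III and V) form the interstitial fibrils that accumulate in renal fibrosis, and type IV collagen forms the sheet of basement membranes. In the kidney the alpha-1 and alpha-2 chains of type IV occur in most basement membranes, whereas the alpha-3, alpha-4 and alpha-5 chains form the mature glomerular network laid down by podocytes. Type VI makes beaded filaments, and the FACIT class (fibril-associated collagens with interrupted helices) decorates fibril surfaces.

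The libraries held 14.5 to 18.5 M reads in genes, and the collagen genes took 0.260% to 0.364% of them. Vehicle library 4 differed from the rest: along principal component 1 over the tested genes (18.2% of the variance) it lay at 39.8 against -13.7 to 15.5 for the others, and its share of mitochondrial reads was the lowest, at 9.23% against 11.3% to 13.5%. It was the lowest of its group for 17 of the 27 tested collagen genes, and values without it are given beside the results it moves most. The library numbers form 3 runs, of which the first holds 3 oxonic acid libraries and no vehicle library, the second 1 and 3, and the last 1 and 2. No label names such a run as a batch. With the runs as a block, the first run adds nothing to the diet estimate, because it holds no vehicle library. Such an estimate sets oxonic acid libraries 4 and 5 against the vehicle libraries.

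No collagen gene passed the test. In limma's fit over 14508 genes, 0 collagen genes and 0 genes of any kind (0%) had an adjusted p under 0.05, and adjusted p for the 27 ran from 0.451 to 0.997. At an unadjusted p under 0.05 there were 3 collagen genes (11.1% of 27), Col16a1, Col1a2 and Col3a1, against 9.49% of all genes tested, so that share was near the background. All 3 were lower with oxonic acid. Of all genes tested, 5.17% had such a p and were lower and 4.32% had such a p and were higher. The voom variant of limma on recovered reads likewise called 0 genes. It gave 4 of 27 collagen genes at an unadjusted p under 0.05, against 9.75% of all genes. Col16a1 was the 1 collagen gene whose groups did not overlap (3.70% of 27), against 1.91% of all genes tested. It was lower with oxonic acid, and 0.965% of all genes tested were lower with separated groups.

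As a family the collagens leaned to lower values. Of the 27, 19 had a lower mean log2 value with oxonic acid (70.4%), against 48.2% of all genes tested, and the median log2 difference was -0.10, against 0.01 over all genes. The members share cell sources and libraries, so these counts are a description and carry no test. The library medians over the 27 genes had a pooled SD within groups of 0.16 log2 units, wider than that median difference. Without vehicle library 4 the count was 21 of 27 and the median -0.15. Within the second run of sample numbers (1 oxonic acid against 3 vehicle libraries) 23 of 27 were lower, with a median of -0.31, and within the last (1 against 2) 13 of 27, with a median of 0.01. Each of these runs rests on 1 oxonic acid library. In the second run that was oxonic acid library 4, the lowest of its group for 13 of the 27 genes. The last run held vehicle library 4, the lowest of its group for 17. So few libraries cannot show whether the lean differs between the runs. In a bulk tissue fewer cells of a type and less RNA per cell cannot be told apart.

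**Figure D1:**
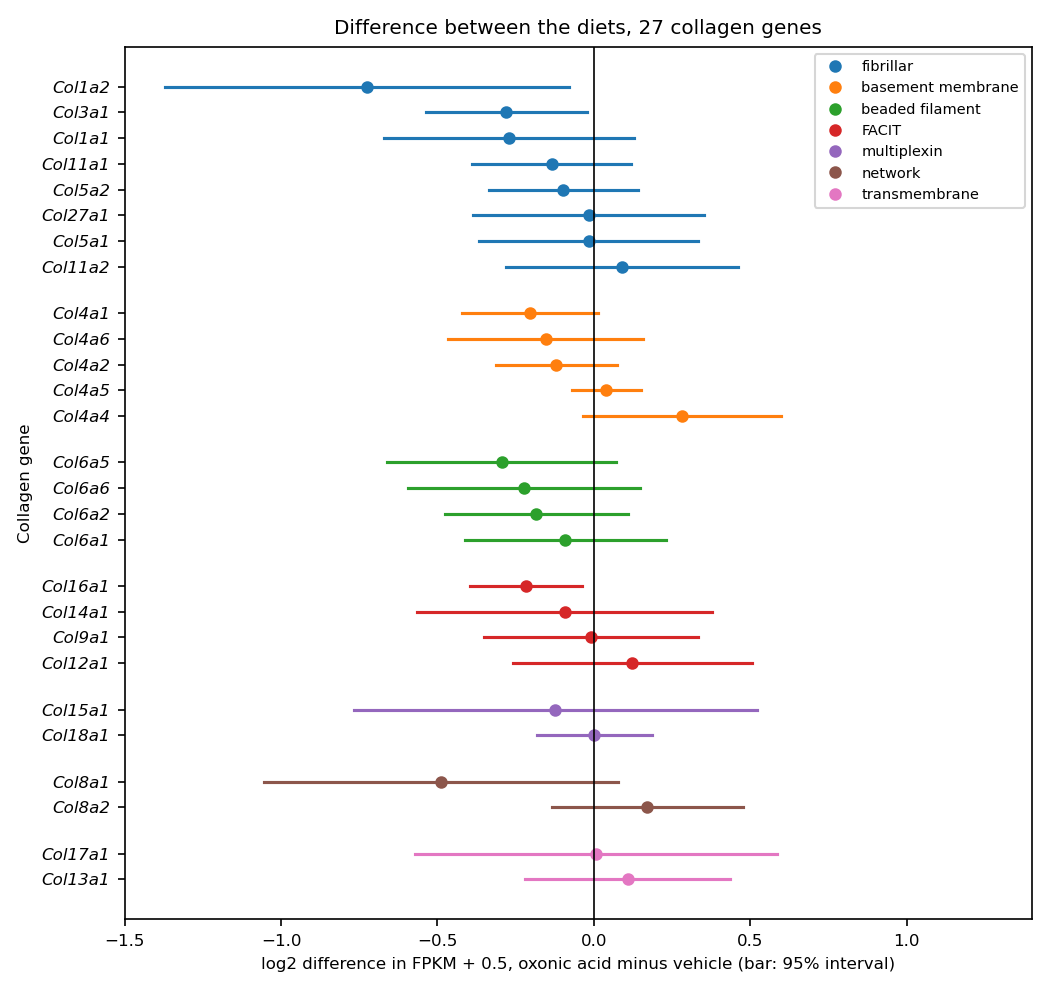
Log2 difference in FPKM + 0.5 (oxonic acid minus vehicle, horizontal axis) for the 27 collagen genes tested, coloured by class; points are limma estimates and bars are 95% intervals. The intervals of Col1a2, Col3a1 and Col16a1 lie below 0, the other 24 cross it, and Col4a4 has the highest estimate, 0.28.

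The fibrillar collagens, the main chains of scar matrix, held the lowest estimate of the family. Of 11 members 8 were tested, 7 of them lower and 1 higher, with a median log2 difference of -0.12. Together the 11 fibrillar genes summed to 130.4 ± 25.3 FPKM under oxonic acid against 157.8 ± 23.9 FPKM under vehicle (SD, n = 5 each), and the ranges overlapped, at 108.3 to 173.3 and 130.3 to 185.4 FPKM. Fibrillar genes made up 24.4% to 31.4% of the summed collagen FPKM with oxonic acid and 28.4% to 33.2% with vehicle.

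Col3a1 (ENSRNOG00000003357, chromosome 9, 52023295 to 52059217, plus strand, coordinates as deposited, genome build not stated in the sources at hand) encodes the single chain of type III collagen. It measured 59.0, 61.9, 80.9, 52.6 and 58.5 FPKM in oxonic acid libraries 1 to 5 and 68.1, 87.1, 84.8, 65.4 and 73.4 FPKM in vehicle libraries 1 to 5. Oxonic acid library 3 lay among the vehicle libraries, and the other 4 lay below all of them. The log2 difference was -0.28 (SE 0.12, 95% interval -0.54 to -0.02), with an unadjusted p of 0.0360 and a limma adjusted p of 0.496. It was lower within both runs, by -0.59 and -0.24 log2 units. Leaving out single libraries moved it between -0.38 and -0.22.

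Col1a1 and Col1a2 encode the chains of type I collagen, which joins 2 alpha-1 chains to each alpha-2 chain. Col1a1 measured 22.3, 28.9, 39.6, 21.7 and 26.3 FPKM with oxonic acid and 29.1, 42.3, 40.3, 25.1 and 30.7 FPKM with vehicle, so its groups overlapped widely. Its log2 difference was -0.27 (95% interval -0.67 to 0.13, limma adjusted p = 0.635). Col1a2 (ENSRNOG00000011292, chromosome 4, 31534225 to 31569151, plus strand) measured 15.3, 8.92, 19.5, 8.83 and 5.79 FPKM with oxonic acid and 14.5, 14.96, 28.2, 17.3 and 17.7 FPKM with vehicle. Oxonic acid libraries 2, 4 and 5 lay below every vehicle library, and the remaining oxonic acid values fell within the vehicle range. The log2 difference was -0.73 (SE 0.29, 95% interval -1.37 to -0.08), with an unadjusted p of 0.0310 and a limma adjusted p of 0.487. Within the runs it was -1.01 and -1.51, and with the runs as a block -1.25 (unadjusted p = 0.0036, limma adjusted p = 0.718). On the oxonic acid side these estimates rest on libraries 4 and 5 alone, at 8.83 and 5.79 FPKM.

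The chains of type I collagen did not vary as a fixed ratio. Col1a1 was 1.46, 3.24, 2.03, 2.46 and 4.54 times Col1a2 per length in the oxonic acid libraries and 2.01, 2.83, 1.43, 1.45 and 1.74 times in the vehicle libraries. By contrast Col1a1 stayed at 0.378 to 0.489 times Col3a1 over all 10 libraries. Across libraries Col1a1 and Col3a1 correlated at r = 0.95, the highest of the 351 pairs of tested collagen genes, as a description over 10 libraries that share scaling and composition.

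The promoter region of Col1a2 is shown because Col1a2 had the lowest estimate of the family. It holds the first 111 of the 250 bases before the RefSeq start in GRCr8 (chr4:33518307-33518417, plus strand), with a CCAAT box, in its reverse form, and a TATA box in capitals.
Col1a2: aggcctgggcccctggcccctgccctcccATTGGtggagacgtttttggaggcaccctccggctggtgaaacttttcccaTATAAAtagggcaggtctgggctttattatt
These motifs were searched on both strands in the 250 bases before each start: the GC box GGGCGG, the CCAAT box CCAAT and the TATA box TATAAA, whose matches can share letters at their ends. Of all 33469 promoters 30.5%, 34.0% and 12.9% held them. RefSeq has 36 promoter entries for 33 of the 42 collagen symbols, and 52.8%, 33.3% and 11.1% of these entries held a GC, CCAAT and TATA box. A match describes letters and not a bound site.

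The other tested fibrillar chains had estimates between -0.14 and 0.09. Col5a1 and Col5a2, chains of type V collagen that set fibril diameter, measured 7.79 ± 1.45 and 11.3 ± 1.15 FPKM under oxonic acid against 7.94 ± 1.76 and 12.2 ± 1.94 FPKM under vehicle (SD, n = 5 each). Their 95% intervals, -0.37 to 0.33 and -0.34 to 0.14 log2 units, bound any difference. Col27a1 lay at 4.10 to 7.52 FPKM with oxonic acid and 4.71 to 8.58 FPKM with vehicle. Col11a1 and Col11a2, chains best known from cartilage, had log2 differences of -0.14 and 0.09 at mean levels of 1.89 and 0.68 FPKM.

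**Figure D2:**
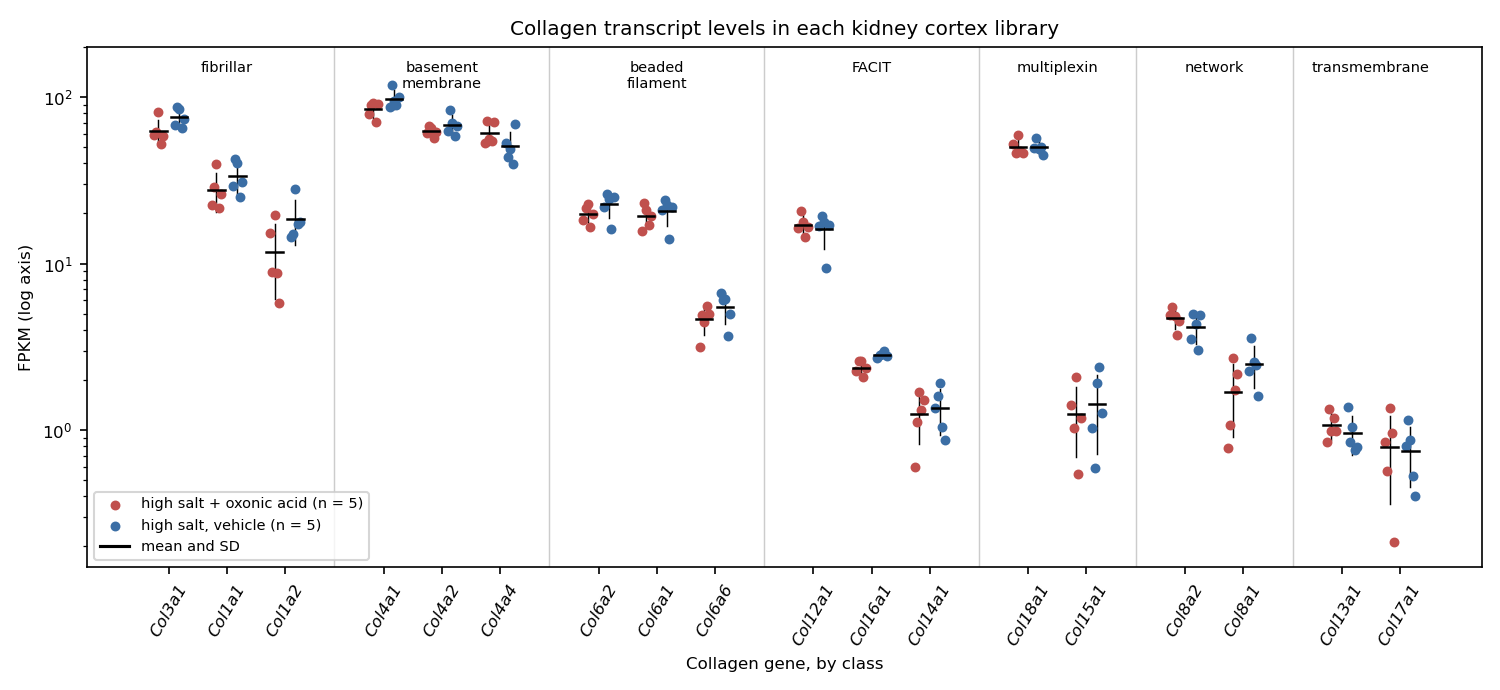
FPKM (log axis) of 18 collagen genes in each of the 10 libraries, in class order; each point is 1 library, horizontal lines are group means and vertical lines the SD (n = 5 per diet). The groups overlap in every gene except Col16a1, where the oxonic acid libraries reach 2.59 FPKM and the vehicle libraries begin at 2.71 FPKM.

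Type IV chains led the family in abundance. The alpha-1 and alpha-2 chains had lower estimates with oxonic acid, the alpha-4 chain a higher one and the alpha-5 chain one near 0, and none passed the test. Col4a1 was the most abundant collagen, above the next gene, Col3a1, in 10 of 10 libraries. The order that followed was less firm: Col3a1 exceeded Col4a2 in 6 of 10 libraries, Col4a2 exceeded Col4a4 in 7 and Col4a4 exceeded Col18a1 in 7. Type IV genes together held 42.3% to 50.1% of the collagen FPKM with oxonic acid and 41.8% to 47.4% with vehicle.

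Col4a1 (ENSRNOG00000016281, chromosome 16, 83522162 to 83632153, plus strand) measured 79.0, 89.4, 92.7, 71.0 and 91.3 FPKM with oxonic acid and 86.8, 118.2, 94.2, 89.1 and 100.5 FPKM with vehicle. The ranges overlapped, although oxonic acid libraries 1 and 4 were below all vehicle libraries. Its log2 difference was -0.20 (95% interval -0.42 to 0.01, limma adjusted p = 0.538). Col4a2 (ENSRNOG00000023972, chromosome 16, 83387364 to 83438561, minus strand), its partner in the trimer, measured 60.9, 67.4, 65.0, 57.1 and 62.1 FPKM with oxonic acid and 62.6, 83.2, 70.2, 58.2 and 67.5 FPKM with vehicle. These groups overlapped over most of their range, with a log2 difference of -0.12 (limma adjusted p = 0.668), or -0.05 without vehicle library 2. The Col4a1 difference was -0.13 without that library. The Col4a1 to Col4a2 ratio stayed at 1.24 to 1.53 in all 10 libraries.

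Col4a4 (ENSRNOG00000014851, chromosome 9, 88232455 to 88357182, minus strand) measured 53.2, 71.8, 55.9, 54.2 and 70.7 FPKM with oxonic acid and 52.8, 43.7, 49.1, 39.5 and 68.5 FPKM with vehicle. Vehicle library 5 lay among the oxonic acid libraries and the other 4 vehicle libraries lay below all of them. The log2 difference was 0.28 (SE 0.14, 95% interval -0.04 to 0.60, unadjusted p = 0.0771, limma adjusted p = 0.560). It was 0.20 without vehicle library 4 and 0.40 without vehicle library 5 (unadjusted p = 0.0071), and within the runs it was 0.16 and 0.44. LOC100911572, the alpha-3(IV) chain-like gene, measured 11.5, 16.5, 13.7, 10.4 and 18.3 FPKM with oxonic acid and 10.998, 9.56, 10.2, 7.51 and 14.5 FPKM with vehicle. Its groups overlapped through vehicle libraries 1 and 5, and its log2 difference was 0.40 (SE 0.18, limma adjusted p = 0.524). Col4a5, the remaining chain of the glomerular trimer, was the steadiest of the chains, at 18.1 to 21.1 FPKM with oxonic acid and 18.8 to 19.3 FPKM with vehicle (log2 difference 0.04, 95% interval -0.07 to 0.15). Col4a6 lay at 0.378 to 0.703 FPKM over all libraries.

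Podocyte markers were higher with oxonic acid in 5 and lower in 1 of 6, with 0 passing and a median log2 difference of 0.26. Podxl, a podocyte surface sialomucin, had a difference of 0.32, the transcription factor Wt1 0.30 and the actin-associated gene Synpo 0.29. Distal nephron markers were also higher, in 5 of 5, with 0 passing and a median log2 difference of 0.42. The part of podocyte or distal nephron content in the Col4a4 values was not tested.

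Set within each library, the balance between the type IV chains differed in its values. LOC100911572 was 0.146, 0.184, 0.148, 0.146 and 0.200 times Col4a1 with oxonic acid and 0.127, 0.0808, 0.108, 0.0843 and 0.144 times Col4a1 with vehicle. These groups did not overlap, by a narrow margin between 0.144 and 0.146. No other chain ratio examined had separated groups, and no background share of separated ratios was computed. Col4a4 was 0.603 to 0.803 times Col4a1 with oxonic acid and 0.369 to 0.682 times with vehicle, which did overlap. The ratios are given without a test; the second was chosen after the levels were seen.

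**Figure D3:**
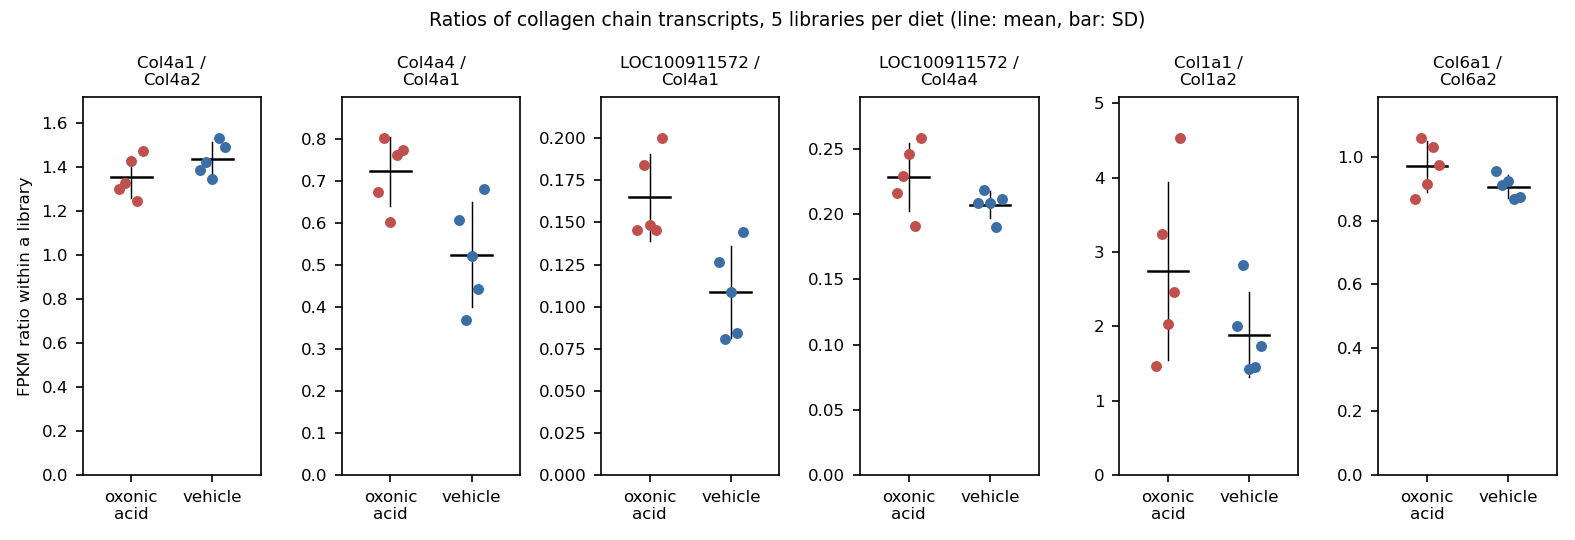
FPKM ratios of chain pairs within each library (vertical axes start at 0), 5 libraries per diet; points are libraries, lines are means and bars the SD. The LOC100911572 to Col4a1 ratio does not overlap between the diets, by a narrow margin (0.146 to 0.200 against 0.0808 to 0.144). The other ratios shown overlap, and the Col1a1 to Col1a2 ratio spreads from 1.43 to 4.54.

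Type IV genes lie in head-to-head pairs that are transcribed away from each other, and the genes of 2 of the 3 pairs varied together. In GRCr8 the RefSeq starts of Col4a1 and Col4a2 are separated by 76 bases, those of Col4a3 and Col4a4 by 412 and those of Col4a5 and Col4a6 by 1414. The gene ends of the deposited table differ from these: there the gaps are 83600 bp for Col4a1 and Col4a2, 295822 bp for Col4a5 and Col4a6, and 373 bp for Col4a4 and LOC100911572. The regions between the starts are shown because they lie before both genes of a pair. The first pair is given as the whole gap (chr16:84885521-84885596, plus strand). The second is given as the 250 bases before Col4a3, a part of the 412-base gap (chr9:91323740-91323989, plus strand). Both are GRCr8, with GC boxes in either orientation in capitals.
Col4a2-Col4a1: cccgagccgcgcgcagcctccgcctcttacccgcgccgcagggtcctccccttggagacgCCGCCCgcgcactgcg
Col4a4-Col4a3: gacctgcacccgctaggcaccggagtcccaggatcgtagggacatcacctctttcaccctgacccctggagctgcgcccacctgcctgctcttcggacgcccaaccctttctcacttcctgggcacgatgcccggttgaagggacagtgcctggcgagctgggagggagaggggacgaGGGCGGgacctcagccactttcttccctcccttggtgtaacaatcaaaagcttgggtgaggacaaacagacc
Each of these printed regions held 1 GC box and neither a CCAAT nor a TATA box. The longer 250-base windows before the Col4a1 and Col4a2 starts each held 1 CCAAT box.

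Across the 10 libraries Col4a4 and LOC100911572 correlated at Pearson r = 0.96 (permutation p = 2e-05, adjusted p = 0.00024) and Spearman rho = 0.95 (permutation p = 9e-05, adjusted p = 0.00054). Col4a1 and Col4a2 correlated at r = 0.88 (permutation p = 0.00119, adjusted p = 0.00238) and rho = 0.88 (permutation p = 0.00145, adjusted p = 0.00249). Without the 2 libraries farthest from the median, r was 0.92 for the former pair and 0.59 for the latter, so the latter rests in part on oxonic acid library 4 and vehicle library 2. The p-values were adjusted over 12 tests on 6 pairs of collagen genes that lie within 300000 bp of each other and were both tested. The runs of sample numbers hold 3 or 4 libraries each, too few for a value within a run.

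Correlation was not limited to head-to-head pairs. Col6a1 and Col6a2, in tandem on chromosome 20, had r = 0.92 and rho = 0.84 (permutation p = 0.00017 and 0.00406, adjusted p = 0.00068 and 0.00487). Col6a6 and Col6a5, in tandem on chromosome 8, had r = 0.89 and rho = 0.92 (permutation p = 0.00046 and 0.0005, adjusted p = 0.0012 for both). Col3a1 and Col5a2, tail to tail on chromosome 9, had r = 0.85 and rho = 0.84 (permutation p = 0.00201 and 0.00368, adjusted p = 0.00301 and 0.00487). These 3 pairs kept r = 0.91, 0.81 and 0.71 without the 2 farthest libraries. Col4a6 and Col4a5, with 1 gene between them in the table, had r = 0.08 and rho = 0.20 (permutation p = 0.832 and 0.584, adjusted p = 0.832 and 0.637). Over all 351 pairs of tested collagen genes the median r was 0.34, and 17 pairs (4.84%) reached 0.85. Those 17 also included pairs on different chromosomes, such as Col6a2 with Col11a1 (r = 0.93) and Col1a1 with Col5a2 (r = 0.93).

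Type VI collagen, the beaded filament around cells, had lower estimates in all 4 members tested, with a median log2 difference of -0.20 and none passing. Col6a1 measured 15.8, 23.0, 20.8, 17.1 and 19.3 FPKM with oxonic acid and 20.9, 24.0, 22.6, 13.95 and 22.0 FPKM with vehicle, and Col6a2 tracked it at 0.868 to 1.06 times in Col6a1 to Col6a2 ratio. Vehicle library 4 was the lowest of all 10 for both genes. The Col6a2 values were 18.2, 21.7, 22.8, 16.6 and 19.8 FPKM with oxonic acid and 21.8, 26.3, 24.4, 16.1 and 25.1 FPKM with vehicle. The log2 differences of -0.09 and -0.18 became -0.22 and -0.30 without vehicle library 4, the latter with an unadjusted p of 0.010. Col6a6 measured 3.17, 4.89, 4.48, 5.57 and 5.003 FPKM with oxonic acid and 6.67, 6.05, 6.15, 3.67 and 4.997 FPKM with vehicle. Here oxonic acid library 1 and vehicle library 4 were the low ends of their groups, and the log2 difference was -0.22 (limma adjusted p = 0.678), or -0.35 without vehicle library 4, -0.11 without oxonic acid library 1 and 0.01 with the runs as a block. Col6a5 lay at 0.326 to 0.818 FPKM with oxonic acid and 0.599 to 1.10 FPKM with vehicle. Col6a3, the remaining chain of the classical type VI trimer and not a member by the rule, measured 11.7 ± 1.66 and 12.4 ± 3.76 FPKM (SD, n = 5 each), with vehicle library 4 lowest at 6.08 FPKM.

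Among the fibril-associated collagens Col16a1 stood lowest in p and Col12a1 highest in level. Col16a1 (ENSRNOG00000031475, chromosome 5, 148257642 to 148311645, plus strand) measured 2.26, 2.59, 2.58, 2.09 and 2.36 FPKM with oxonic acid and 2.71, 2.82, 2.86, 2.98 and 2.79 FPKM with vehicle. Every oxonic acid library lay below every vehicle library. The log2 difference was small, -0.22 (SE 0.08, 95% interval -0.39 to -0.04), with an unadjusted p of 0.0215 and a limma adjusted p of 0.451, on 179 to 281 reads per library. It was -0.20 without vehicle library 4 and -0.35 and -0.24 within the runs.

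The 250 bases before the RefSeq start of Col16a1 (GRCr8, chr5:147672846-147673095, plus strand) are shown because this was the 1 tested member with separated groups. They held 2 GC boxes, in capitals, and neither other motif.
Col16a1: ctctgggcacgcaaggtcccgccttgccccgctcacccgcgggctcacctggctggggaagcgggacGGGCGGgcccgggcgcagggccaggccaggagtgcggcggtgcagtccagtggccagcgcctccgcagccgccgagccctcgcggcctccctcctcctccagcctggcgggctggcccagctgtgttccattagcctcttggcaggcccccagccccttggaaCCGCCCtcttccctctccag
Col8a1 and Col8a2, treated below, held 4 and 5 GC boxes in the same window, the most of any collagen promoter entry.

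Col12a1 measured 16.4, 20.6, 17.8, 14.4 and 16.6 FPKM with oxonic acid and 16.8, 19.4, 17.8, 9.37 and 16.9 FPKM with vehicle. Vehicle library 4 was far below the other 9. The log2 difference was 0.12 with it and -0.05 without it, so the sign rested on that library. Col14a1, a fibroblast collagen, measured 0.596, 1.11, 1.69, 1.32 and 1.52 FPKM with oxonic acid and 1.35, 1.59, 1.90, 1.04 and 0.874 FPKM with vehicle, with overlapping groups and a log2 difference of -0.09 that took either sign as single libraries were left out. Col9a1 lay at 0.694 to 0.977 and 0.513 to 1.09 FPKM in the same order of diets.

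The multiplexins, collagens of basement membrane zones whose C-terminal pieces are released as endostatin-type fragments, were level for the abundant member. Col18a1 measured 52.2, 46.4, 59.3, 47.2 and 46.1 FPKM with oxonic acid and 49.2, 57.1, 48.9, 50.3 and 44.9 FPKM with vehicle. The groups covered nearly the same range, with a log2 difference of 0.00 and a 95% interval of -0.18 to 0.18. Col15a1 measured 1.42, 1.03, 2.08, 0.544 and 1.17 FPKM with oxonic acid and 1.02, 0.589, 1.93, 2.38 and 1.26 FPKM with vehicle. Its values spread over a wide range in both groups, and they are uncertain because the table also holds LOC100909752, at a mean of 1.47 FPKM, which could share its reads.

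The network collagens of type VIII, found in vessel walls and under endothelium, pointed opposite ways. Col8a1 measured 0.785, 1.06, 2.73, 1.75 and 2.18 FPKM with oxonic acid and 2.25, 3.56, 2.58, 2.45 and 1.602 FPKM with vehicle. Oxonic acid libraries 1 and 2 lay below all others, and the log2 difference was -0.49 (95% interval -1.05 to 0.08, limma adjusted p = 0.567). Within the runs it was -0.53 and 0.11. Col8a2 measured 4.92, 5.45, 4.84, 3.72 and 4.54 FPKM with oxonic acid and 3.53, 4.97, 4.31, 3.02 and 4.93 FPKM with vehicle. Its groups overlapped, with a log2 difference of 0.17 that was 0.08 without vehicle library 4.

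The membrane-spanning collagens were scarce. Col13a1 measured 0.852, 1.35, 0.989, 1.18 and 0.985 FPKM with oxonic acid and 1.38, 0.852, 1.04, 0.758 and 0.792 FPKM with vehicle. Col17a1, known from epithelial hemidesmosomes, measured 0.851, 0.571, 1.36, 0.961 and 0.211 FPKM with oxonic acid and 0.802, 1.15, 0.868, 0.528 and 0.402 FPKM with vehicle. Both genes overlapped between the diets, with log2 differences of 0.11 and 0.01.

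**Figure D4:**
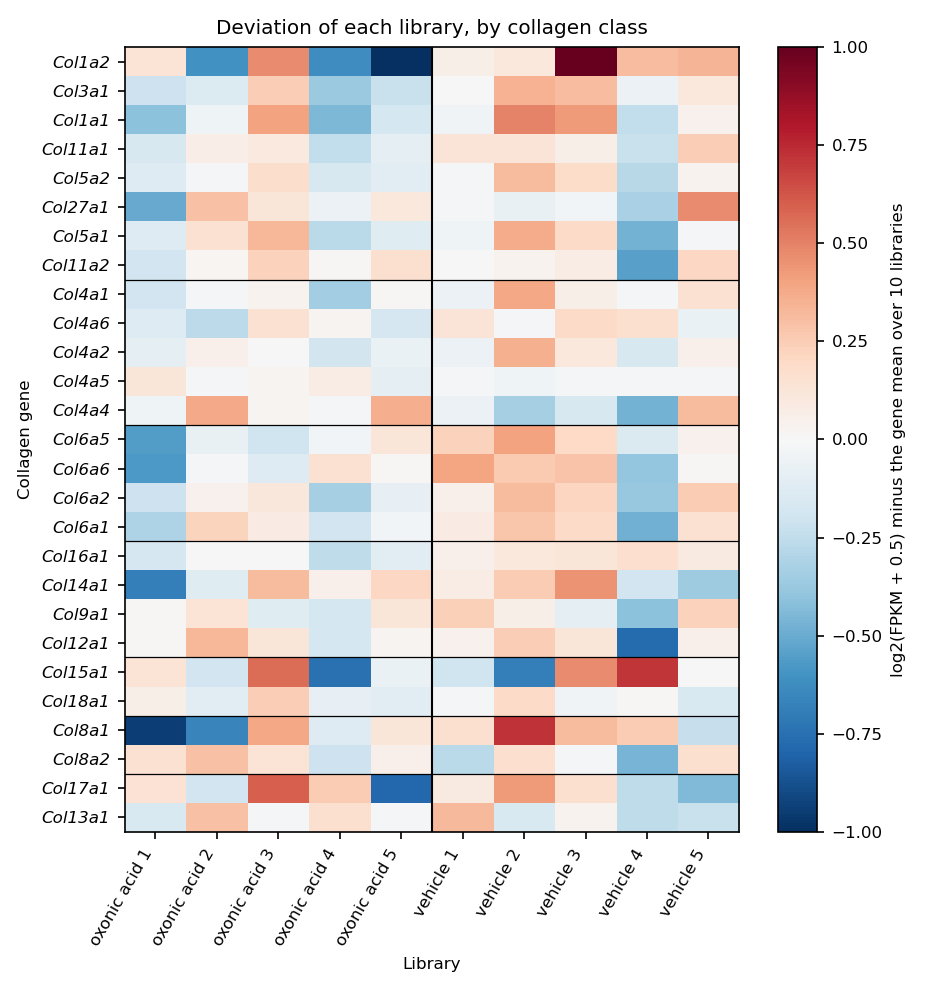
Log2(FPKM + 0.5) of each of the 27 tested collagen genes in each library (columns, line between the diets), as the deviation from the gene's mean over 10 libraries; colours are limited to 1 log2 unit either way. Vehicle library 4 is below the mean in most rows, while vehicle libraries 2 and 3 and oxonic acid library 3 are above it in most.

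The libraries of each diet differed among themselves in collagen level. The median deviation over the 27 genes was -0.15, -0.01, 0.12, -0.17 and -0.07 log2 units in the oxonic acid libraries and 0.04, 0.25, 0.16, -0.25 and 0.05 in the vehicle libraries. Oxonic acid library 3 was the highest of its group for 15 of the 27 genes and vehicle library 2 for 14. Vehicle library 4 held the lowest median of all 10.

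Of the 16 members under the filter, 6 had 0 reads in at least 1 library and none had more than 119 reads in any. These include the cartilage gene Col2a1, at 5 to 15 reads per library, the anchoring fibril gene Col7a1, at 34 to 119 reads, and the hypertrophic cartilage gene Col10a1, at 3 to 11 reads, which also overlaps Nt5dc1 on the other strand. In 2 of the 16 the groups did not overlap, both lower with oxonic acid. Of the 7804 genes under the filter with a read in any library, 0.461% had separated groups and 0.308% were lower with separated groups; these genes were not matched to the members on level. The minor fibrillar gene Col24a1 had 7, 24, 16, 19 and 19 reads with oxonic acid and 35, 56, 49, 31 and 30 with vehicle, or 0.267 ± 0.110 and 0.589 ± 0.136 FPKM (SD, n = 5 each). Col26a1 had 6, 8, 8, 2 and 9 reads with oxonic acid and 13, 17, 16, 10 and 13 with vehicle, or 0.164 ± 0.0760 and 0.314 ± 0.0482 FPKM. With a filter of 0.1 FPKM, limma gave Col24a1 a log2 difference of -0.51 (unadjusted p = 0.00438, adjusted p = 0.409) and Col26a1 -0.30 (unadjusted p = 0.0333, adjusted p = 0.530). One Col23a1 record (ENSRNOG00000046785), a membrane collagen, was higher, at 0.40 (unadjusted p = 0.0398, adjusted p = 0.555), on 4, 1, 10, 6 and 5 reads with oxonic acid and 2, 4, 2, 0 and 0 with vehicle. None of these passed, and 8.75% of all genes in that fit had an unadjusted p under 0.05. Counts this low carry wide counting error, and the pseudocount shrinks these estimates.

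The enzymes that make and mature collagen held no gene that passed. Of 19 tested genes of collagen modification and folding 13 were lower and 6 higher, with 0 passing and a median of -0.05. Serpinh1, the collagen chaperone HSP47, measured 117.1 ± 9.65 and 134.3 ± 9.68 FPKM (log2 difference -0.20, limma adjusted p = 0.414), and P3h2, a prolyl 3-hydroxylase that acts on type IV collagen, 49.8 ± 3.06 and 42.0 ± 5.87 FPKM (0.25, 0.422), SD over 5 libraries each. These 2 of 19 had an unadjusted p under 0.05, a share near the 9.49% of all genes. Of 13 procollagen processing and crosslinking genes 8 were lower and 5 higher, with 0 passing. The smallest p there belonged to Loxl4, a lysyl oxidase, at 2.10 ± 0.742 and 1.47 ± 0.188 FPKM (log2 difference 0.37, limma adjusted p = 0.536).

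Collagen receptors and fibril partners likewise held no gene that passed. Of 7 receptor genes 3 were lower and 4 higher, the smallest p belonging to Ddr1, a collagen-activated tyrosine kinase, at 43.0 ± 3.49 and 46.7 ± 3.36 FPKM (limma adjusted p = 0.594). The degradation list includes the inhibitors Timp1, Timp2 and Timp3. Of its 7 tested genes 6 were lower and 1, Timp3, was higher, with 0 passing. Timp1, an inhibitor of matrix metalloproteinases, measured 17.6 ± 4.66 and 27.8 ± 4.65 FPKM (log2 difference -0.67, limma adjusted p = 0.333), and Mmp14, a membrane collagenase, 17.7 ± 1.62 and 19.6 ± 0.636 FPKM (-0.15, 0.516). Of 7 fibril-binding proteoglycan and partner genes 5 were lower and 2 higher, led by Dcn (decorin) at 105.3 ± 13.0 and 135.3 ± 20.4 FPKM (-0.36, 0.396). Of 10 basement membrane partners 1 was lower and 9 higher, with Lamb2, the laminin beta-2 chain of the mature glomerulus, at 23.9 ± 1.52 and 20.7 ± 2.78 FPKM (0.21, 0.521). None of these genes passed.

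Markers of the matrix-making cells did not move as 1 block. Fibroblast markers, among them Dcn, were lower in 5 of 6, with a summed level of 142.3 to 178.2 FPKM with oxonic acid and 170.3 to 230.8 FPKM with vehicle. Most of that sum was Dcn (means 105.3 and 135.3 FPKM). The 5 include Col14a1, itself a collagen gene tested here, and the remaining marker, Pdgfra, was level (log2 difference 0.004). Pericyte, mesangial and smooth muscle markers were lower in 4 and higher in 4 of 8, at 118.1 to 235.9 and 102.2 to 175.2 FPKM. Of 4 myofibroblast markers 2 were tested, Cthrc1 at a log2 difference of -0.53 and Acta2 at 0.03, and the list summed to 19.6 to 52.6 and 18.7 to 33.4 FPKM. Postn, a myofibroblast matrix gene, lay at 0.264 ± 0.183 and 0.518 ± 0.146 FPKM, near the filter. No marker of these 3 lists was at 0 in all libraries. Macrophage markers were lower in 6 of 6 tested, at 92.0 to 114.2 and 115.0 to 148.7 FPKM, and 4 of 5 tubular injury markers were lower, at 669.6 to 1421.45 and 1215.3 to 3092.5 FPKM. Nearly all of the injury sum was Spp1 (means 1044.5 and 1989.9 FPKM). Endothelial markers were lower in 2 and higher in 4 of 6, at 80.1 to 96.4 and 73.6 to 91.9 FPKM, and proximal tubule markers lower in 1 and higher in 4 of 5, at 2435.4 to 3081.9 and 2209.8 to 2960.8 FPKM. All 5 distal nephron markers were higher, with a median log2 difference of 0.42, at 1406.0 to 2830.7 and 1237.1 to 1885.7 FPKM. In the list chosen for inner medulla and papilla all 4 tested genes were higher, with a median of 0.82. Whether the libraries hold RNA of the medulla was not tested. The list summed to 595.8 to 758.0 and 477.9 to 607.5 FPKM, nearly all of it Aqp1 (means 674.3 and 558.4 FPKM). The other tested markers were low in most libraries. Slc14a2 was 15.98 FPKM in oxonic acid library 3 and 0 in oxonic acid libraries 2, 4 and 5. Upk3a reached 4.29 and 7.77 FPKM in oxonic acid libraries 3 and 4, and 4.93 FPKM in vehicle library 3. None of these passed. The part of these cell types in the collagen values was not tested.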

How the data were processed

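Poly-A RNA of 10 kidney cortex libraries was sequenced, and the authors deposited 1 table of FPKM per gene. The submitters' processing notes name fastp, featureCounts 1.5.0-p3, HISAT2 2.0.5 and, for assembly, StringTie 1.3.3b; no source at hand states the build, annotation or strand setting, so genes that overlap on opposite strands are uncertain. FPKM times gene length gave whole reads in 100% of values (within 0.01) after division by 1 factor per library, that is 14.5 to 18.5 M reads per library. Libraries were grouped by title, and each column was matched through its description. No pair agreed within sampling noise (lowest chi-square per degree of freedom 4.79).

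Genes with a mean of at least 0.5 FPKM (14508 of 32545) were tested on log2(FPKM + 0.5) with limma 3.58.1 (mean-variance trend) in R 4.3.3, two-sided, with Benjamini-Hochberg adjustment over all of them at 0.05. The pseudocount understates changes of low genes. Correlations used 100000 permutations in Python 3.11.15. Values in every library are given for the 3 most abundant tested genes of each class and for any with an unadjusted p under 0.05 or separated groups; Col24a1 and Col26a1 were singled out under the filter for their separated groups, and pathway genes for an unadjusted p under 0.05 or else the smallest p. Other settings, 21 chosen at the start and 2 after seeing the data, are given below. The fit was tested on simulated data. Promoters are RefSeq GRCr8. The alpha-3(IV) ratios use LOC100911572. Members, lists and rules were chosen with earlier results of these data known. The level of 1 listed marker, and the sum of its list, are not reported here.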

Additional observations from a re-analysis of the deposited data

Results flagged for a closer look

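Over 36 groups (18 genes in 2 diets), 2 held a library whose gap to the nearest other exceeded 0.71 of the group's range, the 95% critical value of Dixon's test for 5 samples, and chance gives about 1 in 20 groups. Col12a1 had a low value of 9.37 FPKM in vehicle library 4, with the next at 16.8 FPKM. Col1a2 had a high value of 28.2 FPKM in vehicle library 3, with the next at 17.7 FPKM. Without that library the Col1a2 log2 difference was -0.57 (unadjusted p = 0.0788), against -0.73 with it.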

How the results depend on the processing

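No setting called a collagen gene at an adjusted p under 0.05, and the median log2 difference over the family stayed below 0 in all 23, from -0.20 to -0.04. The settings reuse the same libraries, so they are not independent of each other. With library quality weights limma called 1 gene of any kind, and without single libraries 0 to 1 (1 without vehicle library 1). The 3 collagen genes at an unadjusted p under 0.05 (11.1% of 27, against 9.49% of all genes) became 6 of 37 with a filter of 0.1 FPKM (8.75% of all genes), 6 of 43 with no filter (7.48%), 7 of 27 with quality weights (11.4%) and 5 of 27 without both vehicle libraries 4 and 5 (10.2%). Leaving out single libraries gave 0 to 6 (shares of all genes in brackets). There were 0 without oxonic acid library 4 (8.85%). There was 1 without oxonic acid library 2 (6.98%) or 5 (9.95%) or vehicle library 3 (9.04%). There were 5 without vehicle library 5 (10.4%) and 6 without oxonic acid library 3 (8.02%) or vehicle library 4 (8.95%). The 1 gene with separated groups became 3 with a filter of 0.1 FPKM and 3 with no filter. The count was 4 without vehicle libraries 4 and 5, and 1 to 2 without single libraries. The share of all genes with separated groups was not computed under these settings. Fewer libraries in a group make separation easier, and weaker filters admit more genes. Other causes were not tested.

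With the replicate number as a block, 6 collagen genes had an unadjusted p under 0.05 (Col4a1, Col3a1, Col4a4, Col1a1, Col6a2 and Col1a2), against 9.96% of all genes, and 0 passed. The numbers do not pair the samples: libraries sharing a number correlated at 0.057, -0.0091, -0.013, 0.021 and 0.20 in their deviations, and only number 5 correlated best with its own.

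Of 413 log2 differences of the 18 named genes under other settings, 384 kept their sign and 29, in 7 genes, reversed. With the runs as a block, where oxonic acid libraries 4 and 5 alone carry that diet, Col14a1 was 0.11, Col17a1 -0.19, Col18a1 -0.088 and Col6a6 0.010. Without vehicle libraries 4 and 5 Col12a1 was -0.075, Col13a1 -0.015, Col15a1 0.076, Col17a1 -0.22 and Col18a1 -0.045. Scaling to summed reads, which moved the median of all genes from 0.01 to -0.03, gave Col17a1 -0.013 and Col18a1 -0.032. Col17a1 was -0.033 with a pseudocount of 0.1, -0.045 with voom and -0.064 with quality weights. Without single libraries Col12a1 ran from -0.054 to 0.20, Col14a1 from -0.19 to 0.065, Col15a1 from -0.31 to 0.047, Col17a1 from -0.14 to 0.20 and Col18a1 from -0.059 to 0.050. A filter of 1 FPKM left Col17a1 untested. The 5 libraries a diet and low reads limit what could be detected for the scarce members.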
